A study of Mus musculus with 13 samples.

Results

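Gene expression and alternative splicing were compared between wild-type mouse cerebella taken at postnatal day 10 (P10) and at postnatal day 1 (P1). The comparison rests on 4 of the 13 RNA sequencing libraries of the series, chosen by their labels: libraries 8 and 9 from P1 and libraries 5 and 6 from P10. All 4 came from animals with no mutation on the C57BL/6 background, with no treatment named, and the RNA was total RNA from whole cerebella. The other libraries were 3 wild-type ones from postnatal day 30 (P30) and 3 each from P1 and P10 animals lacking Sam68, an RNA-binding protein of the STAR family encoded by Khdrbs1. The sample labels do not tell if the paired libraries of an age stem from different animals, and the series' design text counts its RNA samples differently from the libraries that were deposited. Adjusted p-values therefore measure a spread between libraries, which may be technical. That spread was estimated from all 13 libraries in 5 groups, so the groups not compared here carried most of it.

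The cerebellum is built largely after birth. In the first postnatal days granule cell precursors divide in the external germinal layer under the influence of Sonic hedgehog from Purkinje cells. Their daughters leave the cell cycle, migrate past the Purkinje cell bodies and form the internal granule layer, while Purkinje cells grow their dendritic trees, synapses are formed and oligodendrocytes begin to myelinate. Alternative splicing of neuronal exons, including very short microexons, is regulated during the same period. Because whole tissue was sequenced, a change in the number of cells of a type cannot be told apart from a change in RNA per cell.

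Expression was given as cRPKM, reads per kilobase and library size with a correction made by the authors. Splicing was given as PSI, the percentage of junction reads that include an exon, an intron or the longer form of an exon. The 4 libraries held 7827412 and 10783474 exon junction reads at P1 and 11734571 and 13660977 at P10. Pearson's r of log2(cRPKM + 1) across genes was 0.972 between the P1 libraries and 0.958 between the P10 libraries. In each library some genes were listed at 0 cRPKM although at least 50 of their junction reads were counted: 24 and 54 genes at P1, and 323 in library 5 and 21 in library 6 at P10. A gene at 0 is therefore only described as listed at 0. Library 5 also stood apart for choroid plexus RNA, with Ttr, which encodes transthyretin, at 268 cRPKM against 0.7 in library 6, 12.8 in library 8 and 2.95 in library 9. Markers of the labelled tissue were found: the Purkinje cell gene Pcp2 lay at 53.3 and 85.4 cRPKM at P1, and Barhl1, a transcription factor of granule cell precursors, at 16.2 and 25.3 cRPKM. Markers of the midbrain and caudal hindbrain were found at P1 as well. They summed to 62.0 and 25.9 cRPKM at P1, against 1.1 and 0.2 cRPKM at P10.

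Of 14063 tested genes, 309 were higher at P10 (2.2%) and 260 were lower (1.85%), at an adjusted p below 0.05 in limma's moderated test with Benjamini-Hochberg adjustment over all tested genes. Differences are given on the log2(cRPKM + 1) scale with their standard errors; this scale understates changes of genes near 0. The median difference over all tested genes was 0.01, so the 2 ages were centred alike. The median size of a called difference was 1.6 in both directions. In all 569 called genes the values of the 2 ages did not overlap. Over all tested genes 3551 were higher and 3238 lower without overlap, so lack of overlap adds no support for a called gene. In either direction 4.05% of the tested genes were called, and the counts of the lists below are to be read beside these shares. Single libraries and the choice of other groups in the fit moved the number of calls: 132 genes higher and 68 lower were called without library 8, and 127 and 89 without library 5. With only the 3 wild-type groups in the fit the counts were 763 and 623, and with exon junction reads scaled to library size in place of cRPKM they were 1124 and 1335 of 10723 genes.

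Myelin genes had the largest median difference among the lists examined. Of 15 tested myelin genes, 12 rose and none fell, with a median difference of 3.26 against 0.01 over all tested genes. Mbp, which encodes myelin basic protein, was at 39.2 and 24.7 cRPKM at P1 and at 1384 and 1143 cRPKM at P10, a difference of 5.29 ± 0.52 (SE, adjusted p = 0.00021). Mag, the myelin-associated glycoprotein gene, rose from 1.31 and 1.81 to 84.3 and 52.0 cRPKM, a difference of 4.72 ± 0.44. The groups lay far apart for both genes, and the level rose further to 2774 ± 303 cRPKM for Mbp at P30 (SD, n = 3). Mobp (4.52), Cldn11 (3.42) and Cnp (2.67) rose as well, on the log2 scale. Mog, which encodes a glycoprotein of the outer myelin surface, rose from 1.88 and 2.09 to 13.7 and 12.4 cRPKM. Its call ended without any 1 of the 4 libraries (largest adjusted p = 0.218). Of the 15 myelin genes, 8 passed without library 8, and 6 passed without library 9 or without library 5.

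The oligodendrocyte lineage moved unevenly. Genes of early myelinating and committed cells rose: Enpp6 from 1.24 and 1.72 to 16.9 and 27.7 cRPKM, Bcas1 from 14.5 and 16.9 to 60.1 and 56.0 cRPKM, and Gpr17 from 13.2 and 8.9 to 66.1 and 36.7 cRPKM. Pdgfra, the growth factor receptor of oligodendrocyte progenitors, was at 33.4 and 35.6 cRPKM at P1 and 18.2 and 27.8 at P10 and did not pass (adjusted p = 0.322). Olig1, a transcription factor of the lineage, fell from 54.8 and 54.1 to 27.9 and 28.8 cRPKM. In all, 4 of 10 progenitor markers were higher, 1 was lower and 5 did not pass. The call of Olig1 ended without any 1 of the 4 libraries (largest adjusted p = 0.153), and that of Gpr17 ended without library 8, 9 or 5 (largest adjusted p = 0.227).

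Of 19 markers of Bergmann glia and astrocytes, 3 rose, 1 fell and 15 did not pass, with a median of 0.52. Their summed level was 4434 and 3448 cRPKM at P1 and 5568 and 5897 cRPKM at P10. Without library 9, 5 rose. Gfap, the intermediate filament gene of astrocytes, rose from 12.9 and 4.98 to 230.2 and 297 cRPKM, a difference of 4.85 ± 0.51 (adjusted p = 0.000287). Aqp4, encoding the water channel of astrocyte endfeet, rose from 47.2 and 28.5 to 271 and 353 cRPKM. The calcium-binding protein gene S100b rose from 12.6 and 10.2 to 82.6 and 88.5 cRPKM. For Gfap and Aqp4 the P30 libraries averaged less than the P10 libraries, at 58.1 ± 8.7 and 124 ± 4.6 cRPKM (SD, n = 3), whereas S100b stood at 390 ± 34.7 cRPKM. Slc6a11, encoding a GABA transporter, fell from 149.95 and 91.8 to 33.0 and 25.9 cRPKM, a call that ended without library 8 (adjusted p = 0.0546). The glutamate transporter gene Slc1a3, at 183 and 259 cRPKM at P1 and 301 and 327 at P10, did not pass (adjusted p = 0.129).

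Markers of mature granule cells rose, while those of their dividing precursors mostly did not pass. Of 13 tested genes of mature granule cells, 8 rose, none fell, and the median difference was 2.07. Gabra6, encoding the GABA-A receptor subunit that marks mature granule cells, went from 0.26 and 0.36 cRPKM to 81.7 and 65.1 cRPKM, and it reached 364 ± 14.3 at P30. Gabrd, encoding the delta subunit that pairs with it outside synapses, was listed at 0 and at 0.46 cRPKM at P1 and at 34.7 and 39.8 at P10, with the smallest adjusted p among the named genes (1.55e-06). Cbln3, a granule cell partner of cerebellin 1, rose from 1.09 and 0.76 to 46.4 and 34.1 cRPKM, a difference of 4.41 ± 0.34. All 3 genes had P10 values many times above both P1 values. Slc17a7, the vesicular glutamate transporter gene of granule cell axons, rose from 1.94 and 3.88 to 58.6 and 37.9 cRPKM. Fat2, a giant cadherin of granule cells, and Chn2, which encodes a Rac-inactivating chimaerin, rose by 2.93 and 2.65. Grin2c, the NMDA receptor subunit gene that comes up in mature granule cells, was at 1.62 and 4.29 cRPKM at P1 and 18.7 and 7.95 at P10, which did not pass (adjusted p = 0.296), and it stood at 78.4 ± 17.6 at P30.

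**Figure D1:**
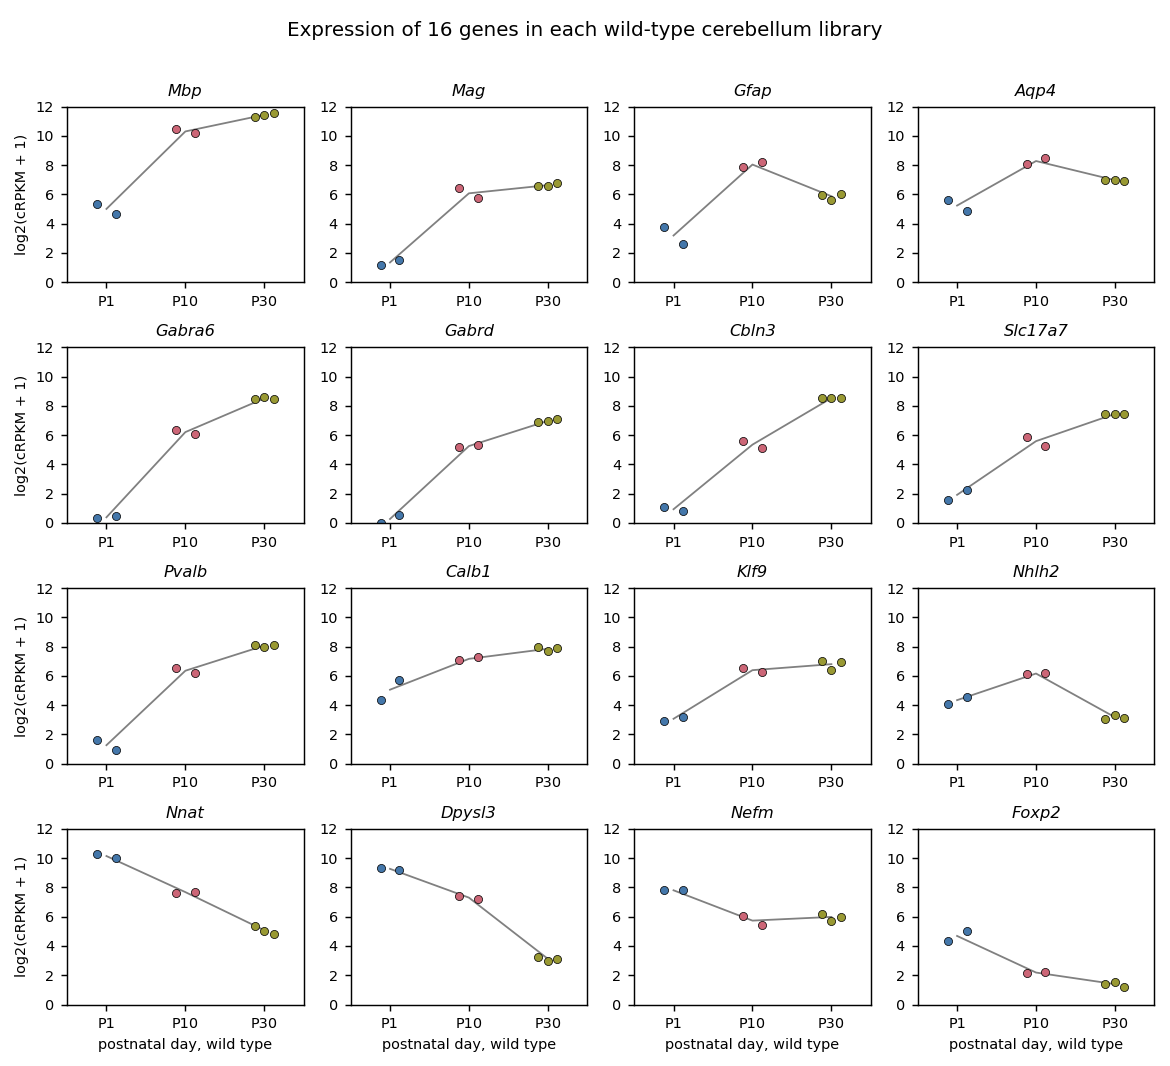
Expression of 16 genes in the wild-type libraries, as log2(cRPKM + 1) on the vertical axis against age on the horizontal axis; each point is 1 library and the line joins the group means. Mbp, Gabra6 and Pvalb are higher in both P10 libraries than in both P1 libraries, Nnat and Dpysl3 are lower, and Gfap and Nhlh2 have their highest values at P10.

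Genes of differentiating, migrating granule cells also rose, with 6 of 11 higher, none lower and a median of 1.09. Neurod1, the transcription factor that drives granule cell differentiation, went from 48.2 and 99.8 to 477 and 379 cRPKM (2.60 ± 0.30, adjusted p = 0.000553). Nhlh2, a related basic helix-loop-helix gene, went from 16.1 and 23.2 to 68.8 and 72.6 cRPKM and was at 8.08 ± 0.84 at P30. Cntn2, the axonal adhesion gene also called TAG-1, rose from 17.2 and 24.0 to 97.1 and 66.8 cRPKM. The level of Nhlh2 and Cntn2 was lower again at P30. Dcx, which encodes doublecortin of migrating neurons, was at 149 and 182 cRPKM at P1 and 103 and 122 at P10 and did not pass (adjusted p = 0.415). The calls of Nfia and Nfib ended when library 8 or library 5 was left out (largest adjusted p = 0.177 and 0.0802), that of Plxna2 when any 1 of the 4 was left out (largest adjusted p = 0.203), and 3 of the 11 genes passed without library 8 or without library 5.

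Of 11 granule cell precursor genes, 1 rose and 10 did not pass, with a median of 0.46. The 1 that rose was Nhlh1, at 9.01 and 19.3 cRPKM at P1 and 39.7 and 54.1 at P10, and at 0.13 ± 0.11 at P30; its call ended without library 8, 5 or 6 (largest adjusted p = 0.196). Atoh1, the transcription factor that specifies granule cells, was at 3.96 and 7.62 and at 12.5 and 6.63 cRPKM, with overlapping groups (adjusted p = 0.626). None of 12 Sonic hedgehog pathway genes passed, with a median of -0.07, but 1 was higher with only the 3 wild-type groups, without knockout P1 library 15 and with junction reads; Gli1, a target that reports pathway activity, was at 5.0 and 13.4 and at 7.83 and 7.5 cRPKM. None of 28 genes of DNA replication and mitosis passed either, with a median of 0.1, in the same test or under any alternative tried. That median was -0.3 without library 8 and 0.42 without library 9. Mki67, which marks dividing cells, was at 28.7 and 57.2 cRPKM at P1 and 39.3 and 67.7 at P10, and at 0.153 ± 0.114 at P30. Top2a, the topoisomerase gene of dividing cells, was at 21.8 and 53.4 and at 40.4 and 48.6 cRPKM. For both genes library 8 was the lowest of the 4 and the age groups overlapped, so no difference between P1 and P10 was detectable with these libraries. Among 11 inhibitors of the cell cycle only Cdkn1b, which encodes p27, passed. It went from 15.1 and 20.5 to 37.0 and 34.0 cRPKM, a call that ended without library 8, 5 or 6 (largest adjusted p = 0.163).

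Purkinje cell genes rose in 10 of 17 tested cases and fell in 1, with a median of 1.04. Calb1, encoding the calcium buffer calbindin, went from 19.8 and 52.3 to 132 and 154 cRPKM (2.11 ± 0.32, adjusted p = 0.00286). Itpr1, the gene of the inositol trisphosphate receptor that releases calcium in Purkinje dendrites, went from 8.69 and 24.1 to 164 and 90.6 cRPKM. Pcp2, a Purkinje cell regulator of G proteins, reached 366 and 411 cRPKM at P10, from the P1 values given above. Homer3, a scaffold that ties metabotropic glutamate receptors to that calcium store, went from 7.17 and 17.3 to 70.2 and 51.7 cRPKM. Its call ended without library 5 (adjusted p = 0.0553), as did that of Car8 (adjusted p = 0.0965), which encodes an inhibitor of inositol trisphosphate binding. The exception was Foxp2, a transcription factor of young Purkinje cells, which fell from 19.5 and 31.3 to 3.4 and 3.7 cRPKM (-2.50 ± 0.36, adjusted p = 0.00216). Without library 8, 5 Purkinje cell genes were higher, and without library 5, 4 were.

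Calcium handling changed in 8 of 21 tested genes, 7 upward and 1 downward, with a median of 0.63. Of all tested genes, 2.2% were called higher and 1.85% lower. Pvalb, encoding the fast calcium buffer parvalbumin of Purkinje cells and interneurons, rose from 2.01 and 0.93 to 91.2 and 71.5 cRPKM (5.09 ± 0.45, adjusted p = 0.000133). Camk4, the nuclear calcium/calmodulin kinase gene of granule cells, rose from 17.2 and 13.8 to 58.9 and 62.6 cRPKM. Camk2g fell from 53.8 and 40.9 to 17.0 and 19.4 cRPKM. The expression of Camk2b, which encodes the beta subunit of CaM kinase II, did not pass at 64.8 and 45.8 and at 83.5 and 60.2 cRPKM (adjusted p = 0.41).

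**Figure D2:**
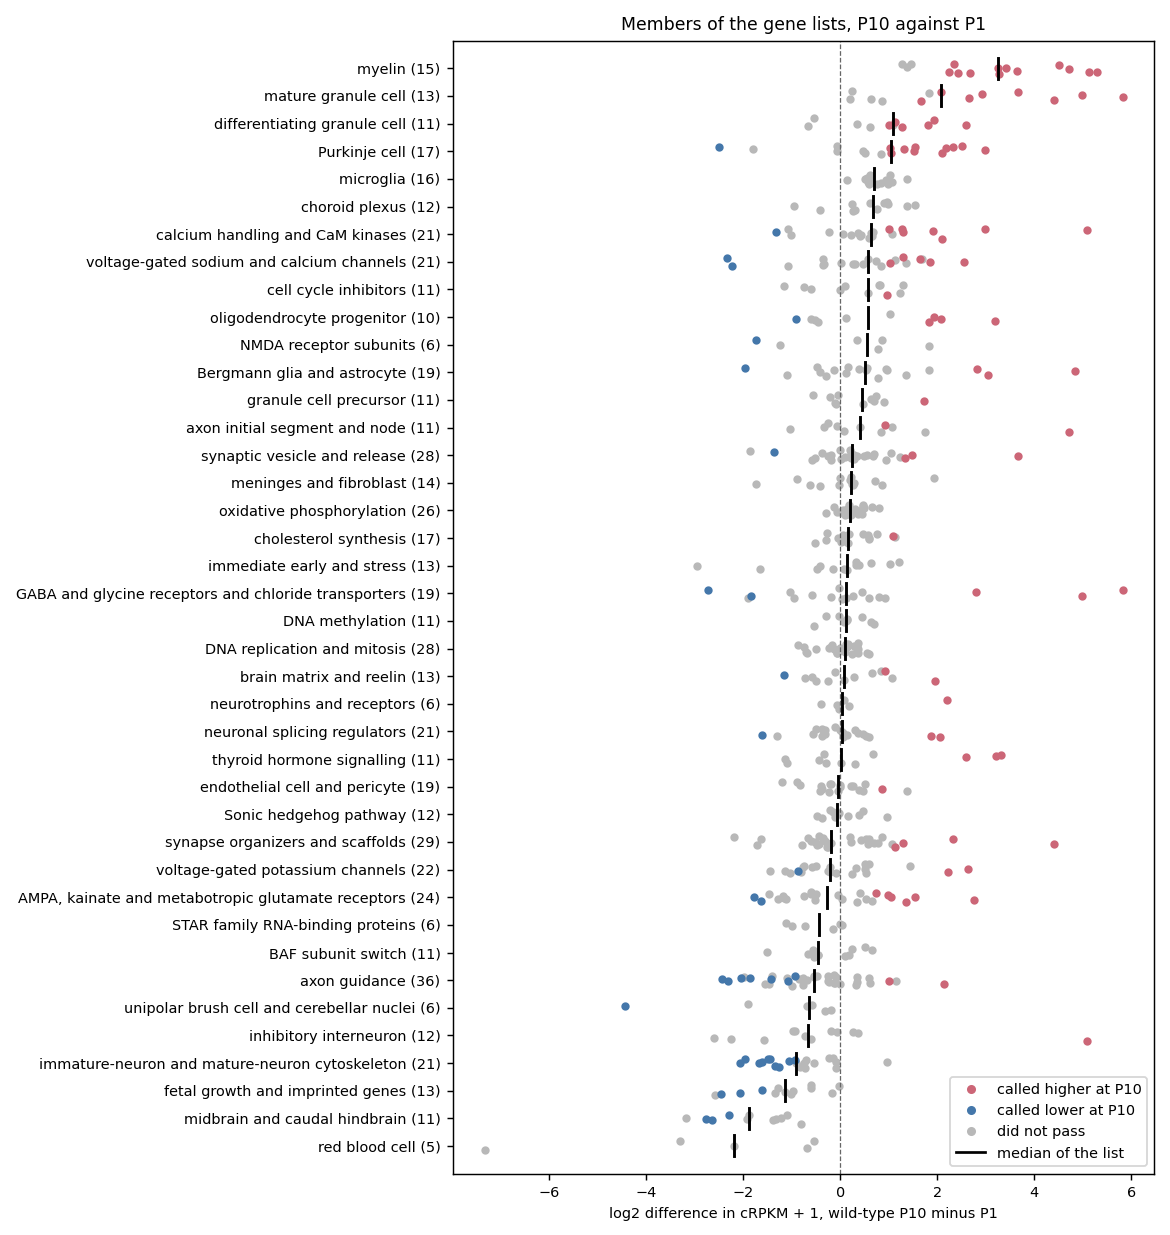
Each point is a tested gene of a list, placed on the horizontal axis by its log2 difference in cRPKM + 1 between wild-type P10 and P1; the black bar is the median of the list and the number in brackets is the genes tested. Myelin (median 3.26) and mature granule cell genes (2.07) lie to the right. Red blood cell genes (-2.19) and markers of the midbrain and caudal hindbrain (-1.88) lie furthest to the left. Fetal growth and imprinted genes (-1.13) and cytoskeletal genes of immature and mature neurons (-0.91) follow. DNA replication genes lie around 0 with none called.

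Of 21 tested cytoskeletal genes of immature and mature neurons, 10 were called lower at P10 and none higher, with a median of -0.91. Of the 28 names listed, Map2, Map6 and Tubb4a were among those not found under these symbols. Dpysl3, which encodes a collapsin response mediator of growing axons, fell from 655 and 578 to 170.1 and 144 cRPKM (-1.97 ± 0.26, adjusted p = 0.00117) and was at 7.72 ± 0.66 at P30. The neurofilament genes Nefm and Nefl fell from 223 and 222 to 65.4 and 41.6 cRPKM and from 267 and 203 to 72.9 and 72.7 cRPKM. Both neurofilament genes were at P30 about where they were at P10, at 62.9 ± 10.5 and 74.0 ± 5.0. Tubb3, the neuronal beta-tubulin gene, fell from 1060 and 772 to 347 and 314 cRPKM. Mapt, encoding the microtubule protein tau, fell from 439 and 321 to 153 and 117 cRPKM, a call that ended without library 8 or 6 (largest adjusted p = 0.114). Without library 8 or without library 6, 6 of the 21 genes were called lower.

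Among 36 axon guidance genes, 7 fell, 2 rose and the median was -0.54. Epha4, an ephrin receptor gene, fell from 20.6 and 25.8 to 3.15 and 4.58 cRPKM (-2.32 ± 0.34, adjusted p = 0.00227). Unc5b, a netrin receptor gene, moved the other way, from 3.76 and 6.57 to 28.8 and 22.3 cRPKM. Only 1 of these genes was called lower without library 8, 2 without library 5 and 3 without library 6. Growth genes that are high before birth gave 3 falls and no rise among 13, with a median of -1.13. Nnat, an imprinted gene of young neurons encoding neuronatin, fell from 1266 and 1006 to 199 and 209 cRPKM (-2.46 ± 0.23, adjusted p = 0.000148), and it was at 33.1 ± 7.0 at P30. Grb10, an imprinted growth inhibitor, fell from 30.1 and 33.8 to 10.1 and 9.4 cRPKM. Igf2bp2, an RNA-binding protein gene of growing tissue, fell from 4.68 and 9.42 to 0.73 and 0.96 cRPKM, and its call ended without any 1 of the 4 libraries (largest adjusted p = 0.155). Igf2 itself was at 56.0 and 42.7 and at 42.3 and 45.1 cRPKM and did not pass (adjusted p = 0.921).

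Among 19 GABA and glycine receptor and chloride transporter genes, 3 rose and 2 fell, with a median of 0.12; no fall was called without library 8 or without library 5. Gabra3, more abundant in the immature brain, fell from 43.0 and 23.7 to 6.25 and 10.8 cRPKM, a call that ended without library 8 or 5 (largest adjusted p = 0.179). The chloride transporter gene Slc12a5 did not pass, at 43.8 and 25.3 and at 65.7 and 24.2 cRPKM, where the 2 P10 libraries differed from each other more than the groups did. Of 24 AMPA, kainate and metabotropic glutamate receptor genes and AMPA receptor partners, 6 rose, 2 fell and the median was -0.27. Without library 8, 3 rose and 2 fell; 6 rose and 6 fell with only the 3 wild-type groups, and with junction reads 7 were higher and 8 lower of 19. Grm4, the presynaptic metabotropic receptor gene of granule cells, rose from 8.59 and 5.07 to 71.1 and 36.2 cRPKM. Cacng4, an auxiliary AMPA receptor subunit gene, fell from 71.1 and 73.7 to 19.2 and 26.4 cRPKM. Grik2 rose from 14.04 and 18.6 to 41.1 and 44.5 cRPKM and Gria4 from 35.9 and 35.7 to 69.1 and 73.7 cRPKM. Of 6 tested NMDA receptor genes, Grin2d passed, falling from 11.7 and 9.94 to 2.62 and 2.44 cRPKM; its call ended without any 1 of the 4 libraries (largest adjusted p = 0.159).

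Of 21 sodium and calcium channel genes, 5 rose and 2 fell, with a median of 0.58. Without library 5, 1 rose and 1 fell, and without library 8, 2 rose and 1 fell. Cacna1a, encoding the P/Q-type channel of Purkinje and granule cells, rose from 20.2 and 18.4 to 54.2 and 44.0 cRPKM (1.29 ± 0.21, adjusted p = 0.00467; 0.0552 without library 5). Its auxiliary subunit gene Cacnb4 rose from 5.49 and 4.55 to 21.8 and 19.8 cRPKM. Cacna1h, a T-type channel gene, fell from 7.71 and 7.43 to 0.36 and 1.14 cRPKM. Scn3a, the sodium channel gene of the immature brain, fell from 24.9 and 18.2 to 2.79 and 4.92 cRPKM, a call that ended without library 8 or 5 (largest adjusted p = 0.0829). Of 22 potassium channel genes, 2 rose and 1 fell; the fall was not called without any 1 of the 4 libraries. The median of the potassium channel genes was -0.21. Kcna1, an axonal delayed rectifier gene, rose from 3.35 and 4.26 to 33.6 and 24.6 cRPKM. Among 28 synaptic vesicle genes 3 rose and 1 fell, with a median of 0.24. Cplx1, encoding complexin 1, rose from 100.2 and 81.1 to 282 and 187 cRPKM. Sv2b, a vesicle glycoprotein gene, rose from 22.4 and 21.8 to 62.92 and 62.9 cRPKM. Syt1 and Snap25, synaptic genes common to all neurons, did not pass. Syt1 was at 99.3 and 93.7 and at 73.9 and 74.4 cRPKM (adjusted p = 0.186). Snap25 was at 242 and 125 and at 365 and 309 cRPKM (adjusted p = 0.177).

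Of 11 genes of thyroid hormone signalling, 3 rose and none fell, with a median of 0.02; with junction reads 1 was higher and 3 were lower of 7, with a median of -0.46, and 1 rose without library 8 or without library 5. Klf9, a transcription factor induced by thyroid hormone, rose from 6.58 and 8.32 to 91.3 and 75.5 cRPKM (3.32 ± 0.36, adjusted p = 0.000421). Dio2, the enzyme that activates thyroid hormone, was at 0.11 and 0.15 and at 10.3 and 8.6 cRPKM. Hr, encoding the corepressor hairless, was at 0.22 and 0.62 and at 10.2 and 5.46 cRPKM. Both of the latter calls ended without library 8 or 5 (largest adjusted p = 0.068 and 0.0857). Among 21 neuronal splicing regulators 2 rose and 1 fell, with a median of 0.03. Rbfox3, the NeuN gene, rose from 17.4 and 14.2 to 74.6 and 48.4 cRPKM. Mbnl2, a muscleblind gene, rose from 9.94 and 14.2 to 48.9 and 56.6 cRPKM, and Celf5 fell from 54.7 and 48.6 to 14.5 and 18.02 cRPKM. These 3 calls held when any 1 of the 4 libraries was left out. Ptbp2, a repressor of neuronal exons, was at 68.1 and 64.8 and at 61.3 and 77.1 cRPKM, and Srrm4, an activator of microexons, at 9.79 and 11.2 and at 13.3 and 14.1 cRPKM; neither passed (adjusted p = 0.974 and 0.59). None of 6 tested STAR family genes passed, whereas 1 was lower without library 8, after quantile normalization, with only the 3 wild-type groups and without knockout P1 library 15, and 2 were lower with junction reads. Khdrbs1 was at 56.5 and 74.4 and at 61.2 and 56.2 cRPKM, and its relatives Khdrbs2 and Khdrbs3 at 14.2 and 13.8 and at 6.46 and 10.01, and at 23.3 and 22.1 and at 13.8 and 8.69 cRPKM (adjusted p = 0.917, 0.253 and 0.0694).

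Named next are genes among the 12 largest rises whose symbols are on none of the lists above. Gng13, a G protein gamma subunit gene, was at 3.49 cRPKM and listed at 0 at P1 and at 166 and 111 at P10. Gsbs, encoding the G-substrate of Purkinje cells, was at 0.74 cRPKM and listed at 0 at P1 and at 59.0 and 45.8 cRPKM at P10. Il16, whose neuronal form is made in granule cells, rose from 0.25 and 1.22 to 62.4 and 38.2 cRPKM (4.90 ± 0.45, adjusted p = 0.000133). Mybpc3, known as a myosin-binding protein gene of the heart, was listed at 0 and at 0.21 cRPKM at P1 and was at 39.8 and 20.3 cRPKM at P10, and at 30.9 ± 1.8 at P30. These 4 calls held without any 1 of the 4 libraries.

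Named next are genes among the 12 largest falls. Gm10479, a predicted gene, was at 29.6 and 82.2 cRPKM at P1 and listed at 0 in both P10 libraries. AW551984 fell from 90.8 and 23.9 to 2.0 and 0.78 cRPKM (-4.37 ± 0.70, adjusted p = 0.00407; 0.0634 without library 8). Meis2, a homeobox gene, fell from 93.9 and 36.9 to 3.04 and 0.88 cRPKM (-4.44 ± 0.88, adjusted p = 0.0138), and its call ended without library 8, 5 or 6 (largest adjusted p = 0.179). Zcchc12 fell from 81.8 and 38.97 to 4.02 and 3.7 cRPKM, and Cyp26b1, encoding a retinoic acid-degrading enzyme, from 50.2 and 103 to 6.87 and 10.2 cRPKM. Stk32b, a kinase gene, was at 29.0 and 19.8 cRPKM at P1 and listed at 0 and at 0.61 cRPKM at P10, and Gng4 at 51.2 and 12.7 and at 0.9 and 3.27 cRPKM, with calls that ended without library 8 or 5 (largest adjusted p = 0.0546 and 0.137). In AW551984, Meis2, Zcchc12, Stk32b and Gng4 library 8 was the highest of the 4. Markers of the midbrain and caudal hindbrain, regions next to the cerebellum, moved with these falls: the summed cRPKM of the 17-gene list was 62.0 and 25.9 at P1, highest in library 8, and 1.1 and 0.2 at P10, and 3 of its 11 tested genes were called lower (1 without library 8, which left 7 tested, 1 without library 5 or 6, and 5 without library 9). Hoxb3 and Hoxa2, transcription factors of the caudal hindbrain, stood at 5.78 and 4.72, and 5.04 and 3.0 cRPKM at P1 and were listed at 0 in both P10 libraries. The median difference of the tested genes of that list was -1.88 in wild type and -0.34 in the knockout. The part of such tissue in the falls, here and in the lists above, was not tested. Fgf3 was at 5.53 and 12.3 cRPKM at P1 and listed at 0 in both P10 libraries.

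Several lists held no called gene in this comparison. None of 26 genes of oxidative phosphorylation (median 0.2), 11 BAF chromatin subunits (-0.45), 11 genes of DNA methylation (0.12), 16 microglial markers (0.69), 12 choroid plexus markers (0.68), 14 meningeal markers (0.22), 5 red blood cell genes (-2.19) and 13 immediate early and stress genes (0.14) passed in limma's test. With other settings some did: of the BAF subunits, 2 were lower with only the 3 wild-type groups and 3 with junction reads, and of the red blood cell genes 2 were lower with only the 3 wild-type groups. In at least 1 other setting, 1 gene passed in each of the microglial, choroid plexus, meningeal, DNA methylation and immediate early lists. Across all genes 2293 had an unadjusted p below 0.05. The choroid plexus markers summed to 364 cRPKM in library 5 and to 44.6 to 64.8 cRPKM in the other 3 libraries; their median was -0.02 without library 5 and 1.64 without library 6.

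Splicing was tested in 36346 events with at least 10 reads in each of the 4 libraries. The PSI of 101 events was higher at P10 (0.278%) and that of 86 was lower (0.237%), at an adjusted p below 0.05 in limma on the log odds of the reads and a difference of at least 10 percentage points. The median size of a called difference was 28.9 points among rises and 36.6 points among falls. By class, the share called was as follows. Of 514 microexons, cassette exons of at most 27 nt, 3.5% were called, as were 1.56% of 4542 longer cassette exons whose length is a multiple of 3, 0.41% of 5848 other cassette exons, 0.338% of 20425 introns, 0.131% of 2296 alternative donor sites and 0.0735% of 2721 alternative acceptor sites. All 18 called microexons had a length that is a multiple of 3, against 84.2% of the tested microexons. Over all cassette exons that share was 78.8% of the 113 called and 45.6% of the 10904 tested. The shares by class depended on the fit. With only the 3 wild-type groups, 2 microexons rose and 3 fell of 514. Of the 4542 longer cassette exons with a length that is a multiple of 3, 15 rose and 15 fell there. With only the 4 libraries compared, no exon of these classes was called. The number of calls rested on the libraries in the fit: 22 rises and 29 falls were called without library 8, 58 and 64 without library 9, 20 and 23 without library 5, 40 and 22 without library 6, 41 and 32 with only the 3 wild-type groups, and no rise and 3 falls with only the 4 libraries compared.

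**Figure D3:**
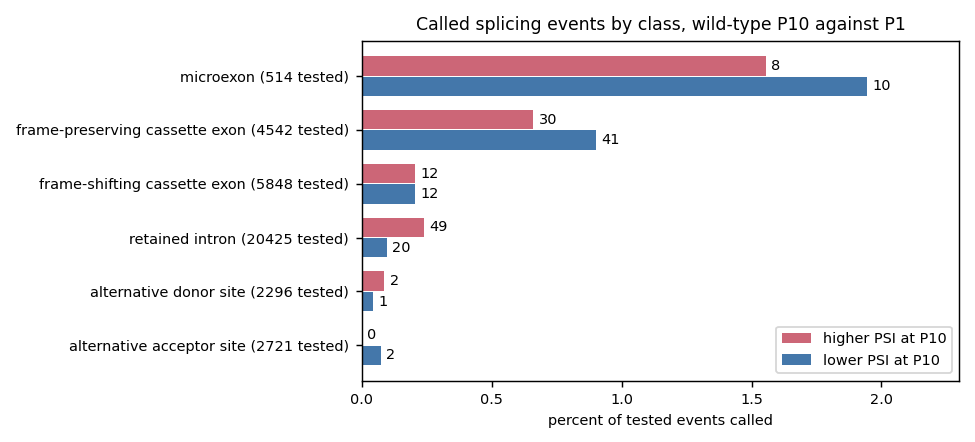
Share of the tested splicing events called higher (red) or lower (blue) at wild-type P10 than at P1, in percent on the horizontal axis, for each class of event; the number at each bar is the events called. Microexons have the highest share called, with 8 higher and 10 lower of 514.

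Microexons add or remove a few amino acids and are included mainly in neurons. The sequences of the called microexons and short exons on which the results below turn are printed so that their length, frame and neighbours can be seen, with the exon in capitals between the 15 transcript bases on either side. Coordinates are those of the deposited tables (mm9), and the letters were read from GENCODE M21 transcripts by matching gene, exon length and both flanking intron lengths, without use of coordinates; 86 of 111 called cassette exons looked up found a match and 74 of them lay wholly in coding sequence.
Ryr1 15-nt exon, chr7:29841253-29841267, minus strand: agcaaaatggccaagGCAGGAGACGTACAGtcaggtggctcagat
Dst 18-nt exon, chr1:34353587-34353604, plus strand: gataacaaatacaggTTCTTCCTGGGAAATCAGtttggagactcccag
Ank2 12-nt exon, chr3:126682174-126682185, minus strand: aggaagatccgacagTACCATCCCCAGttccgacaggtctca
Ryr2 24-nt exon, chr13:11726574-11726597, minus strand: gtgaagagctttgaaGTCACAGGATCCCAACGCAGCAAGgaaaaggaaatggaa
Nfasc 18-nt exon, chr1:134534441-134534458, minus strand: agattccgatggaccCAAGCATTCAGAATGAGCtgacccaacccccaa
Kcnma1 12-nt exon, chr14:24268422-24268433, minus strand: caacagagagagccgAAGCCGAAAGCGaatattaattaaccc
Clasp2 27-nt exon, chr9:113774204-113774230, plus strand: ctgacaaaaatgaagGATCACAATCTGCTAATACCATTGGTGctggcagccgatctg

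Inclusion of the Ryr1 microexon, in the gene of a ryanodine receptor that releases stored calcium, was 0 in both P1 libraries and 81.7% and 94.8% at P10, a difference of 88.3 points (adjusted p = 0.0053). It rested on few reads, 25 and 21 at P1 and 32 and 23 at P10, so that the count of 0 allows an inclusion of up to 12% and 14.3% at P1, for counting error alone. Its call ended without library 8 or 6 (largest adjusted p = 0.0651). The Dst microexon, in a gene of a cytoskeletal linker of the plakin family, rose from 13.4% and 14.2% to 64.5% and 54.4%, and it was at 99.4% ± 0.5 at P30 (SD, n = 3). In Ank2, the ankyrin-B gene of axons, inclusion rose from 36.38% and 36.36% to 67.4% and 60.8%. In Ryr2 it rose from 62.4% and 63.4% to 88.3% and 90.5%. For all 4 genes both P10 libraries lay above both P1 libraries. Microexons that lost inclusion were those of Nfasc, from 70.5% and 80.3% to 24.0% and 22.9%, and of Kcnma1, the gene of a calcium-activated potassium channel, from 73.1% and 61.8% to 22.2% and 23.8%. The Clasp2 microexon, in a gene of a microtubule-end protein, fell from 75.4% and 63.3% to 30.4% and 30.1%, and a neighbouring 27-nt exon of Clasp2 fell by 36.2 points. Among these, the Nfasc call held without any 1 of the 4 libraries; the calls of Dst, Ank2, Ryr2 and Clasp2 ended without each of the 4 (largest adjusted p = 0.235, 0.327, 0.208 and 0.295), and that of Kcnma1 ended without library 8, 5 or 6 (largest adjusted p = 0.14).

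Longer cassette exons that keep the reading frame gave 30 rises and 41 falls. Several are shown in the same way, except that Cacna1g is given with the 21 nt that its preceding exon can gain from a second donor site.
Camk2b 75-nt exon, chr11:5887060-5887134, minus strand: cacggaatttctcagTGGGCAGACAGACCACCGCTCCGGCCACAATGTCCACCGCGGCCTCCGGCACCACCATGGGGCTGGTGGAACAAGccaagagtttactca
Cacna1a 36-nt exon, chr8:87159448-87159483, plus strand: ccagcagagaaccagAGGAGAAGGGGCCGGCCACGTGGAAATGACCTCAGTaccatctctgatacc
Ndrg4 39-nt exon, chr8:98236225-98236263, plus strand: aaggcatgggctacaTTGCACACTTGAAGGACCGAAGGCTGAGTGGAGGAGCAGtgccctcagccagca
Nfasc 45-nt exon, chr1:134503580-134503624, minus strand: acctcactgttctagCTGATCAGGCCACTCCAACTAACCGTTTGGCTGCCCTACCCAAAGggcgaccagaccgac
Cacna1g 54-nt exon, chr11:94284985-94285038, minus strand: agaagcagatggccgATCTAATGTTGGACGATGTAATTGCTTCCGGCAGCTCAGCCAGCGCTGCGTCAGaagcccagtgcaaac
Cacna1g 21-nt donor extension, chr11:94287078-94287098, minus strand: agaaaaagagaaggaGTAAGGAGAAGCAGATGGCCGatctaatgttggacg

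The 75-nt exon of Camk2b, which encodes the beta subunit of CaM kinase II, had a PSI of 11.3% and 19.6% at P1 and of 75.1% and 71.2% at P10. The log2 odds rose by 3.95 ± 0.39 (adjusted p = 0.000786), on 1535 to 3021 reads per library, and inclusion was 97.2% ± 0.1 at P30. The 93-nt exon of Mapt, which carries a microtubule-binding repeat of tau, rose from 4.46% and 6.76% to 43.6% and 30.7% and was at 98.7% ± 0.3 at P30; its call ended without library 8 or 5 (largest adjusted p = 0.115). The 36-nt exon of Cacna1a rose from 10.4% and 13.2% to 56.5% and 56.6%, and reached 95.1% ± 0.6 at P30. For these 3 exons P10 lay between P1 and P30. The 39-nt exon of Ndrg4, a gene of the nervous system and heart, rose from 7.45% and 5.17% to 55.8% and 50.4% on 2671 to 5846 reads. The 90-nt exon of Nrxn2, a presynaptic neurexin gene, rose from 34.7% and 46.1% to 79.9% and 75.8%, a call that ended without library 8, 5 or 6 (largest adjusted p = 0.198). In Nova1, itself a neuronal splicing regulator, a 72-nt exon rose from 23.5% and 45.9% to 90.3% and 92.3%, and in Mbp a 33-nt exon rose from 38.2% and 29.4% to 91.9% and 89.1%; the call of Mbp ended without any 1 of the 4 libraries (largest adjusted p = 0.119).

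Among the falls, a 42-nt exon of Dlg2, which encodes the postsynaptic scaffold PSD-93, went from 85.8% and 83.3% to 17.9% and 23.1% (log2 odds -4.41 ± 0.39, adjusted p = 0.000467) and was at 1.0% ± 0.2 at P30. A 156-nt exon of the same gene fell from 96.2% and 98.7% to 68.8% and 73.6%. The call of the longer exon ended without library 5 (adjusted p = 0.0677). In Cacna1g, a T-type channel gene of Purkinje cells, the 54-nt exon fell from 86.6% and 78.3% to 30.6% and 31.3%, while use of the 21-nt donor extension directly before it rose from 14.04% and 7.35% to 64.9% and 66.9%. The donor call ended without library 9, 5 or 6 (largest adjusted p = 0.0857). In Tnc, encoding the matrix protein tenascin-C, 6 exons of 270 or 273 nt fell, each of the size of a fibronectin type III repeat. The 273-nt exon with the largest change went from 72.1% and 80.1% to 11.7% and 13.6%; neighbouring Tnc exons share junctions, so the 6 are not independent measurements. All 6 calls ended without any 1 of the 4 libraries (largest adjusted p = 0.208).

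**Figure D4:**
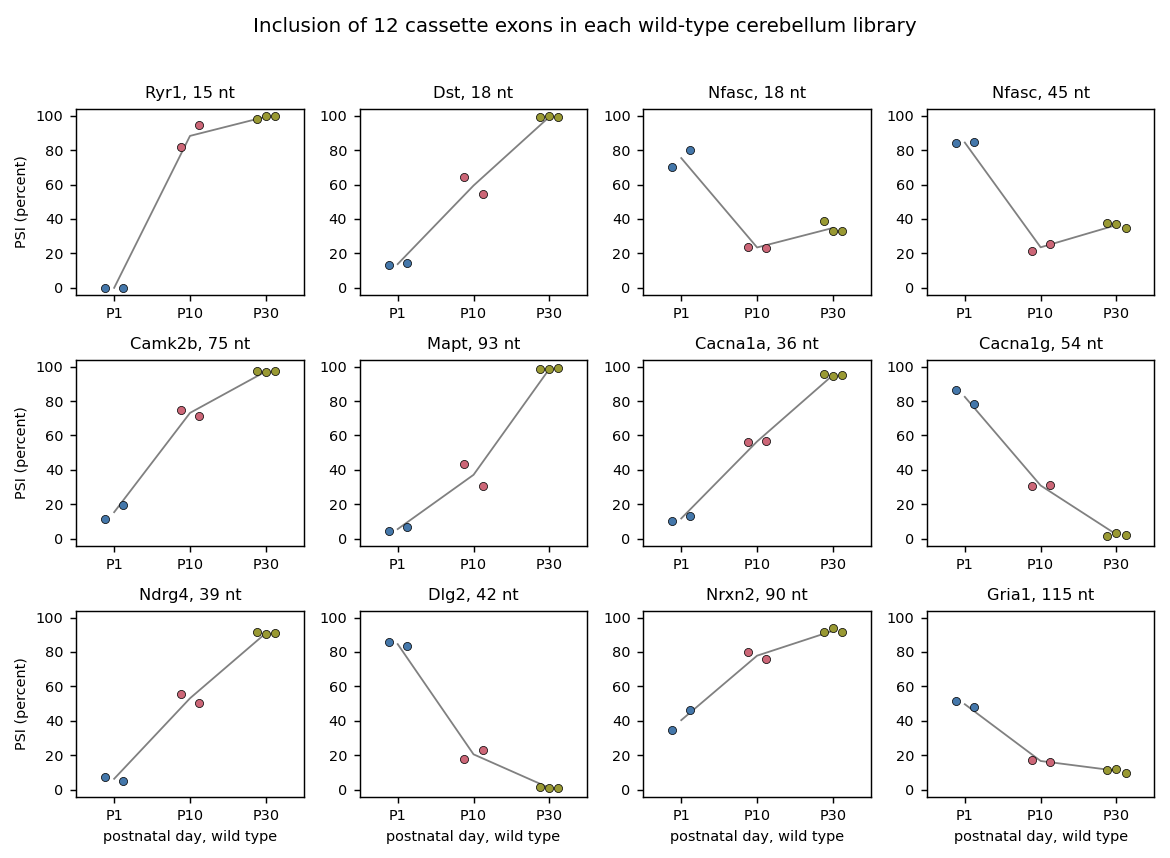
Inclusion (PSI, percent) of 12 cassette exons against age in the wild-type libraries; each point is 1 library and the line joins the group means. Ryr1, Dst, Camk2b, Mapt, Cacna1a, Ndrg4 and Nrxn2 rise from P1 to P10, and both Nfasc exons, Cacna1g, Dlg2 and Gria1 fall; the Mapt exon is at 43.6% and 30.7% at P10 and at 98.7% ± 0.3 at P30.

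Nfasc had 6 called exons, as many as Tnc. The gene encodes neurofascin, whose forms from neurons and from myelinating glia differ by splicing. The 45-nt exon fell from 83.9% and 85.0% to 21.6% and 25.5% (log2 odds -4.13 ± 0.30, adjusted p = 9.36e-05), and the 18-nt microexon fell as given above. An exon of 116 nt rose from 6.72% and 3.89% to 49.3% and 45.4%, and one of 205 nt from 3.9% and 3.89% to 45.1% and 39.5%, the latter a call that ended without library 8 or 5 (largest adjusted p = 0.0839). Falling and rising exons of Nfasc thus crossed from mostly included to mostly skipped and from mostly skipped to nearly even use. At P30 the 45-nt exon was at 36.5% ± 1.6 and the 116-nt exon at 28.1% ± 2.3. In Mag, a 45-nt exon fell from 73.9% and 57.1% to 9.35% and 16.3%, on only 20 and 11 reads at P1, and its call ended without library 8 or 5 (largest adjusted p = 0.054). Expression of Nfasc itself rose from 27.03 and 28.3 to 69.0 and 41.4 cRPKM, a call that ended without library 8, 9 or 5 (largest adjusted p = 0.198).

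Gria1 and Cacna1a each have a pair of equally long exons between the same neighbours. In each pair only the exon given first was called in wild type. Its partner moved the other way there but missed the threshold, so the wild-type calls alone do not show a replacement. In the knockout both partners passed limma's test, with 21.2 points for Gria1 (adjusted p = 0.00916) and -27.5 points for Cacna1a (adjusted p = 0.0164). The AMPA receptor gene Gria1 has 2 exons of 115 nt between the same neighbours, the pair known as flip and flop, which differ in the receptor's desensitization. They are printed to show how alike they are: 79 of 115 bases are the same in an ungapped comparison.
Gria1 upstream 115-nt exon, chr11:57123271-57123385, plus strand: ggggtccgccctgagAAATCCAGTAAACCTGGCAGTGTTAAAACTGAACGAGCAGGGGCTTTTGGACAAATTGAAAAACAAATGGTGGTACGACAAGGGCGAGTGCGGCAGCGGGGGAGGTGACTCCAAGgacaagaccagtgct
Gria1 downstream 115-nt exon, chr11:57124110-57124224, plus strand: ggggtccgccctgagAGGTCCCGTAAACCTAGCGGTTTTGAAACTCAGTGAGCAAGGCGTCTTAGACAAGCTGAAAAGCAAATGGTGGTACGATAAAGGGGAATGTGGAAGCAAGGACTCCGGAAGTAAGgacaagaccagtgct
The upstream exon fell from 51.5% and 47.8% to 17.4% and 15.9% (log2 odds -2.30 ± 0.32, adjusted p = 0.00758), and its call ended without library 8, 5 or 6 (largest adjusted p = 0.0952). The downstream exon, named after its values were seen, was at 69.5% and 73.6% at P1 and at 91.8% and 90.9% at P10. Its change of 19.8 points missed the threshold (adjusted p = 0.058).

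Cacna1a also has a pair of 97-nt exons between the same neighbours. One of them rose from 12.8% and 8.21% to 55.7% and 42.5%, a call that ended without library 8, 9 or 5 (largest adjusted p = 0.174). Its partner, named after its values were seen, was at 72.3% and 62.5% at P1 and 41.5% and 50.4% at P10 and missed the threshold (adjusted p = 0.163). Exons were classed as frame-shifting by their length alone, which also placed the Gria1 and Cacna1a pairs in that class. An exchange within a pair of equally long exons would leave the frame unchanged. Among the other exons of that class, Dlgap4, a postsynaptic scaffold gene, gained an 80-nt exon, from 29.4% and 35.8% to 78.2% and 65.7%. Grm7, a presynaptic glutamate receptor gene, gained a 92-nt exon, from 1.14% and 6.1% to 34.7% and 37.9%. The Dlgap4 call ended without any 1 of the 4 libraries (largest adjusted p = 0.326) and the Grm7 call without library 8, 5 or 6 (largest adjusted p = 0.295).

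Only 5 alternative donor and acceptor sites were called. In Itpr1 a donor site that adds 27 nt was used less: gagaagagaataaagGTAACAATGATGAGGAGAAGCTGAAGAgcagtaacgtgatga is the transcript with the added bases in capitals (chr6:108338333-108338359, plus strand). Its use fell from 87.8% and 89.7% to 39.97% and 43.1% (log2 odds -3.40 ± 0.31, adjusted p = 0.000552). A called intron of 1028 nt that starts at the first of these bases fell from 80.0% and 80.4% to 22.1% and 26.7%, and the 2 events overlap. In Camk2b an acceptor that adds 3 nt fell from 80.9% and 67.0% to 19.5% and 24.7%, and that call ended without library 8, 5 or 6 (largest adjusted p = 0.14). In Mapre3, a gene of a microtubule-end protein, a donor that adds 45 nt rose from 15.6% and 16.7% to 45.4% and 43.4%, and that call ended without any 1 of the 4 libraries (largest adjusted p = 0.269).

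Introns gave 49 rises and 20 falls among 20425. The 2 exon-intron junctions of a retained intron should carry similar read numbers, and they differed (the authors' balance p below 0.05) in at least 1 of the 4 libraries for 41 of the 69 called introns, against 8306 of those tested. Among the 28 balanced ones, 19 rose and 9 fell. The largest falls were in Mog, where 4 introns went from 89.1% to 100% at P1 to 4.95% to 12% at P10. They rested on 27 to 74 reads at P1, when Mog was at 1.88 and 2.09 cRPKM. The intron of 252 nt, balanced in all 4 libraries, was at 100% in both P1 libraries and at 11.5% and 11.9% at P10 (log2 odds -9.86 ± 0.56, adjusted p = 1.27e-05). Introns of the signalling genes Itsn1 and Kalrn rose from 5.12% and 5.43% to 54.6% and 60.3%, and from 6.67% and 10.9% to 76.1% and 70.7%, both with unbalanced junctions. In Igf2bp3, 4 introns rose, the one with the largest change from 15.6% and 18.5% to 76.5% and 93.6% on 15 to 48 reads; its call ended without library 8 or 6 (largest adjusted p = 0.0693).

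Of 150 genes with a called event, 148 were tested for expression, of which 18 were higher, 4 were lower and 126 did not pass. The share called in either direction was 14.9%, against 4.05% of all tested genes. Events needed at least 10 reads in all 4 libraries, a filter the genes tested for expression did not have to pass. The 2 shares are therefore not of like sets. Itpr1, Cacna1a, Nfasc, Mbp, Mag and Mog were in the first group and Mapt in the second. Genes of a list of much-studied neuronal splicing targets had a called event in 16 of 76 cases (21.1%), against 1.56% of all 9588 genes with a tested event; they also had a median of 7 tested events against 3, and the list was drawn up with results of these data known. Within that list Grin1, an obligatory NMDA receptor subunit gene, missed the threshold at its 111-nt exon with a difference of 28.8 points (adjusted p = 0.0766).

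The same ages were compared in the animals lacking Sam68, which share no library with the wild-type comparison. Both comparisons came from the same fit, with a spread estimated from all 13 libraries. The knockout libraries thus had a part in the wild-type calls, and passing in the knockout was not an independent check. Khdrbs1 was at 1.28 to 8.5 cRPKM in the 6 knockout libraries and at 56.2 to 74.4 cRPKM in the 4 wild-type libraries of these ages. Over all tested genes, 5.58% were called higher and 4.59% lower at P10 in the knockout, and over all events 0.392% and 0.312%. Knockout P1 library 15 is used here and stood apart: it listed 1239 genes at 0 despite at least 50 junction reads, against 11 to 379 in the other libraries, and its lowest correlation within its group was 0.892. Of the 309 genes higher at P10 in wild type, 307 were also higher in the knockout and 256 passed there; of the 260 lower ones, 254 were lower and 194 passed. Without library 15, an alternative chosen after seeing the data, 307 and 254 had these directions and 251 and 172 passed. Of 186 called events measured in the knockout, 183 changed in the same direction, 155 by at least 10 points, and 116 passed; without library 15, 182 of 185 changed in the same direction and 98 passed. The exceptions included a Rph3al exon with 10 and 11 reads at P1, named after its values were seen, which rose by 17.4 points in wild type and fell by 25.8 points in the knockout. Camk2b illustrates the usual case: its 75-nt exon rose by 57.7 points in wild type and by 47.8 points in the knockout. The difference between the 2 age changes was tested directly. It passed for 2 of 14063 genes (0.0142%), with 728 at an unadjusted p below 0.05, and for 0 of 36211 events in limma, with 1100 at an unadjusted p below 0.05 and a smallest adjusted p of 0.183; tested on PSI itself, 1 event passed. A difference that missed the threshold does not show that the 2 age changes were equal.

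**Figure D5:**
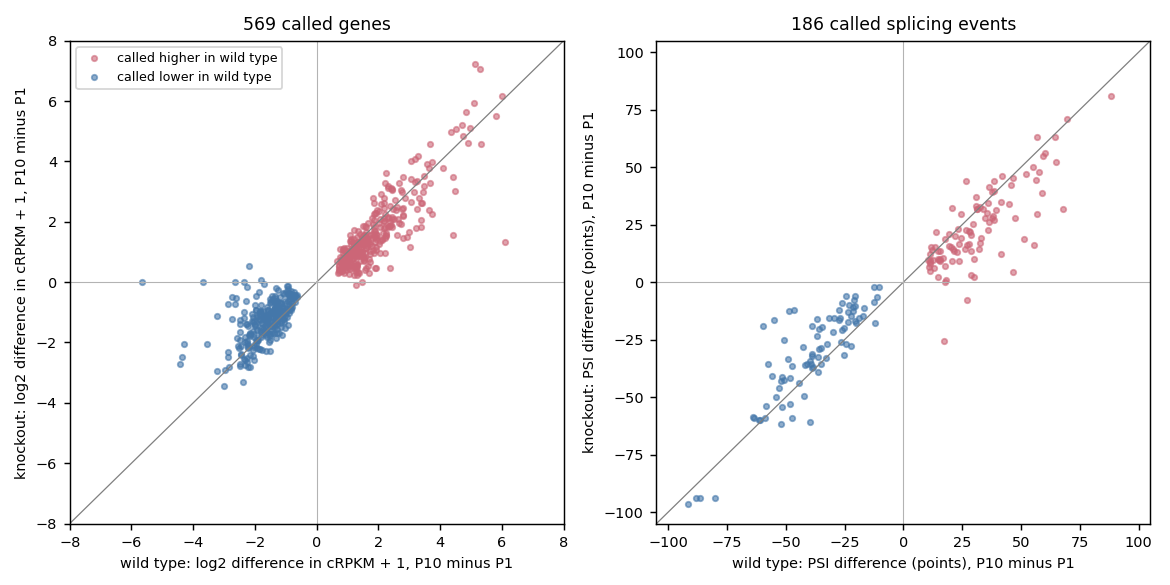
Change from P1 to P10 in the knockout (vertical axis) against the change in wild type (horizontal axis) for the 569 genes (left, log2 difference in cRPKM + 1) and the 186 splicing events (right, PSI points) called in wild type; each point is a gene or event and the line marks equal change. Of the events, 183 lie in the quadrants of equal direction.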

How the data were processed

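Per the labels' protocols, 13 libraries were made from total RNA with an adapted Illumina TruSeq Stranded mRNA procedure. The authors deposited 1 table of RPKM values with a correction (cRPKM) and 1 of PSI, in percent, with read numbers. FastQC, Trimmomatic and mm9 are named in the submitters' processing notes; for the aligner and table program the entry is: not given in the sources used here. Of 22667 genes 1114 had no value; depth is known only from junction reads.

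Genes whose mean reached 1 cRPKM in some group were tested with limma 3.58.1 (R 4.3.3) on log2(cRPKM + 1), in 1 fit of 13 libraries and 5 groups. Events needed 10 reads in all 4 libraries and a mean PSI of 5 to 95; log2 odds of the reads (0.5 added) were tested. Adjustment was by Benjamini-Hochberg, over all tested genes or event entries. Alternative sites of a group were adjusted as separate entries. Each group was then counted as 1 event, by its member with the smallest p. Both scripts were tested on simulated data. Genes named are the first 3 of each list, up to 4 more with the smallest p, and the 12 largest changes in each direction. Events are the 6 largest in each direction per class and those with the smallest p in studied genes. The largest changes were taken from called genes or events whose library values did not overlap. Other names are marked. Members and lists were chosen with earlier results of these data known. Some items are not reported here.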

Additional observations from a re-analysis of the deposited data

Results flagged for a closer look

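The change from P1 to P10 differed between wild type and knockout by limma's test of the difference in Gm10479 and Hist1h2ag. Gm10479, a predicted gene, was at 29.6 and 82.2 cRPKM at wild-type P1 and listed at 0 at wild-type P10 and in all 6 knockout libraries; the difference between the age changes, knockout minus wild type, was 5.66 (adjusted p = 0.00853). Its junction reads fell in wild type by 1.08 on the log2 scale and were counted in both P10 libraries. Hist1h2ag, a histone gene of a multi-copy cluster, was at 10.03 and 13.9 cRPKM at wild-type P1 and likewise listed at 0 in the P10 and knockout libraries; the difference was 3.68 (adjusted p = 0.0134). With junction reads, no gene passed this test. Reads of such genes can be split between near-identical copies, so both values are uncertain.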

How the results depend on the processing

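No paired analysis was possible because the groups compared share no replicate number. Counts of genes higher and lower at P10 were 309 and 260. They were 763 and 623 with only the 3 wild-type groups, 517 and 432 without knockout P1 library 15, and 1124 and 1335 with junction reads; leaving out 1 of the 4 libraries gave 127 to 243 and 68 to 229. Genes whose age change differed between genotypes numbered 2. That count was 1 with a mean of at least 5 cRPKM, 1 after quantile normalization, 0 with junction reads (718 at an unadjusted p below 0.05) and 6 to 17 with 1 library left out. Splicing events higher and lower were 101 and 86. They were 0 and 3 with only the 4 libraries compared, where 4793 events had an unadjusted p below 0.05. They were 41 and 32 with the 3 wild-type groups, 74 and 71 without knockout P1 library 15, and 139 and 144 with 2 added to the reads; leaving out 1 library gave 20 to 58 and 22 to 64. Events differing between genotypes were 0, 1 with limma on PSI and 0 to 3 with 1 library left out. The cause was not tested. Other settings stayed within 1.5 times the counts reported.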
